A study of Mus musculus with 31 samples.

Results

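Semaphorins are a family of guidance proteins that share an extracellular sema domain, and 9 of them are described here in mouse fibroblasts with and without Xist. They are Sema3a, Sema3b, Sema3c, Sema3d, Sema3e and Sema3f of the secreted class 3, the transmembrane proteins Sema5a and Sema6d, and the membrane-anchored Sema7a. The 9 were chosen by name, with their counts in all 3 groups of RNA libraries already known, and each is 1 of the 24470 gene symbols in the deposited exon table. All 9 passed the filter on low counts, which kept 12910 genes. Because the counts of these same libraries chose the members, their levels and differences are given as a description, with no p-value or call.

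The study asked how Xist RNA, which coats and silences the inactive X chromosome in female cells, acts on the chromatin remodeler BRG1, and the series holds 31 samples. Only its 6 RNA-seq libraries, which measure the RNA of the semaphorins, were used. The cells were fibroblasts from the dermis of a female hybrid mouse, CAST/Ei crossed with 129/Sv/Jae. The WT group had Xist intact. The line 1 and line 2 groups were 2 separate XaWT XiΔXist cell lines, in which Xist was deleted from the inactive X after X inactivation was complete while the active X stayed wild type. Each group had 2 libraries, called biological replicates in the labels, which do not say what was repeated. Each line is 1 cell line, so a difference between a line and WT cannot be told apart from a difference between cell lines that has no link to Xist. Both lines were compared with the same 2 WT libraries.

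Ribosomal RNA was removed from total RNA before sequencing, and the counts used here summed to between 3808045 and 7063171 per library, with the replicate 1 library the shallower in every group. Levels are given as CPM, counts per 1000000 counts of a library after scaling between libraries, and levels of different genes are compared only as CPM per kilobase of transcript. Xist, the deleted gene, was at 633 and 429 CPM in the WT libraries, at 1.08 and 0.273 CPM in line 1 and at 0.969 and 0.282 CPM in line 2. The summed level of 10 fibroblast markers ran from 4406 to 7029 CPM over the 6 libraries, and 1 of them, Dcn, differed between groups as given with the other markers. In bulk RNA, fewer cells that express a gene and less of its RNA per cell cannot be told apart.

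Semaphorins steer growing axons, migrating cells and vessels by acting on the cytoskeleton of the cell that receives them. Class 3 members are secreted and mostly bind a neuropilin, which holds a plexin as its signalling partner. The transmembrane classes bind plexins directly, and Sema7a is held in the membrane by a lipid anchor and acts through plexin-C1 and integrins that contain the beta1 chain. Fibroblasts of the dermis both make semaphorins and carry their receptors.

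The promoter windows of 4 members are printed here from the reference genome, because Sema7a, Sema3d and Sema3e had the largest differences between groups and Sema3c lies on the same stretch as the last of them with little difference in line 1. Each runs from 250 bases before to 50 bases after a start site that RefSeq annotates on GRCm38.p6, on the plus strand and read from 5′ to 3′, with every CG pair in capitals. They are reference sequences and were not read from these hybrid cells. The windows are chr5:12382916-12383215 for Sema3d, chr5:14025026-14025325 for Sema3e, chr5:17574566-17574865 for Sema3c and chr9:57939862-57940161 for Sema7a.
Sema3d: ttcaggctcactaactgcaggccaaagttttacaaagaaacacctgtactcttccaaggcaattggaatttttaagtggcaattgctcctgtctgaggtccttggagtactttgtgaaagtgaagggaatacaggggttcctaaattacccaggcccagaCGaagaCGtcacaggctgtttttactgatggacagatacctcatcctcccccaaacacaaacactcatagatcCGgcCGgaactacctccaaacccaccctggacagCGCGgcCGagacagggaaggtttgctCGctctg
Sema3e: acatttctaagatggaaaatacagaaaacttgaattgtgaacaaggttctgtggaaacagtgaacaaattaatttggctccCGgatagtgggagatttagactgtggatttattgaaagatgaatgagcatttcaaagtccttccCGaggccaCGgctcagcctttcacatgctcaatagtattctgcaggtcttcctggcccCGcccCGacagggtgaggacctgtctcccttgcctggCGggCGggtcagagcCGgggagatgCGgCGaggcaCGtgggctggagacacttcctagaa
Sema3c: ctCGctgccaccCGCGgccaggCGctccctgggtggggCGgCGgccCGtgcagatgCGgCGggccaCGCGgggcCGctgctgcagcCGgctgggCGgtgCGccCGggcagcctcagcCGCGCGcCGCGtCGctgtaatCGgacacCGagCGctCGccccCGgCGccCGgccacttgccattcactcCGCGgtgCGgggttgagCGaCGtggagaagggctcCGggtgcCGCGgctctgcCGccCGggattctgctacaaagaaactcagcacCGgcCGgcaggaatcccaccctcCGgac
Sema7a: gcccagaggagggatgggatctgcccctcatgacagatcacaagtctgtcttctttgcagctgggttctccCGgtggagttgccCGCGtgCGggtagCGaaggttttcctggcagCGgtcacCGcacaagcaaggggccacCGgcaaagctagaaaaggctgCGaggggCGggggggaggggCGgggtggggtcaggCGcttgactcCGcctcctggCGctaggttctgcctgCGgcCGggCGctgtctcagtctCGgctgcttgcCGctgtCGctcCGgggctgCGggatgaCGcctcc
Sema3d had 8 CG pairs in its window and Sema3e had 11, near the median of 7 over all 32851 RefSeq promoter windows of that length. Sema7a had 23 and Sema3c had 42, above the upper quartile of 20.

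RefSeq promoter windows were held for 7 of the 9 members, with 8 windows in all. Sema5a, with 23 CG pairs, lay with Sema7a and Sema3c above the upper quartile. Sema6d had 14 pairs at its upstream start and 6 at the downstream one, neither of which is the start of the transcript counted here. Sema3a had 2, below the lower quartile of 3, at a start upstream of the transcript counted here. The Sema7a window was set on a start at base 57940112, where the transcript counted starts at 57940135. Sema3b and Sema3f had no entry. Short motifs were searched on both strands. The letters GGGCGG, bound by Sp1-type factors, were in the windows of Sema3c, Sema3e, Sema5a, Sema7a and the upstream one of Sema6d, and in 35.7% of all windows. The letters CACGTG, the core of an E-box, were in those of Sema3e and the upstream Sema6d window, and in 7.15% of all windows. The letters CCAAT were in the Sema3d window alone among the 8, and in 37.4% of all windows. None of the 8 windows held the core promoter letters TATAAA (in 13.6% of all windows), the AP-1 site TGANTCA (in 7.81%) or an interferon response element (in 3.44%). GGGCGG and CACGTG each contain a CG pair, so they are not independent of the CG counts.

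The libraries of line 1 and WT did not overlap for 8 of the 9 members, with Sema3c the exception, where 51% of all genes tested did not overlap. Those of line 2 and WT did not overlap for 7 members, with Sema3b and Sema7a the exceptions, beside 48.8% of all genes, and those of the 2 lines for 7, with Sema3a and Sema3c the exceptions, beside 48.3%. The members were chosen with these values known, so nothing is read from their counts. The median log2 fold change of the 9 was -0.52 in line 1 and -0.22 in line 2, beside 0.01 over all genes in either comparison.

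**Figure D1:**
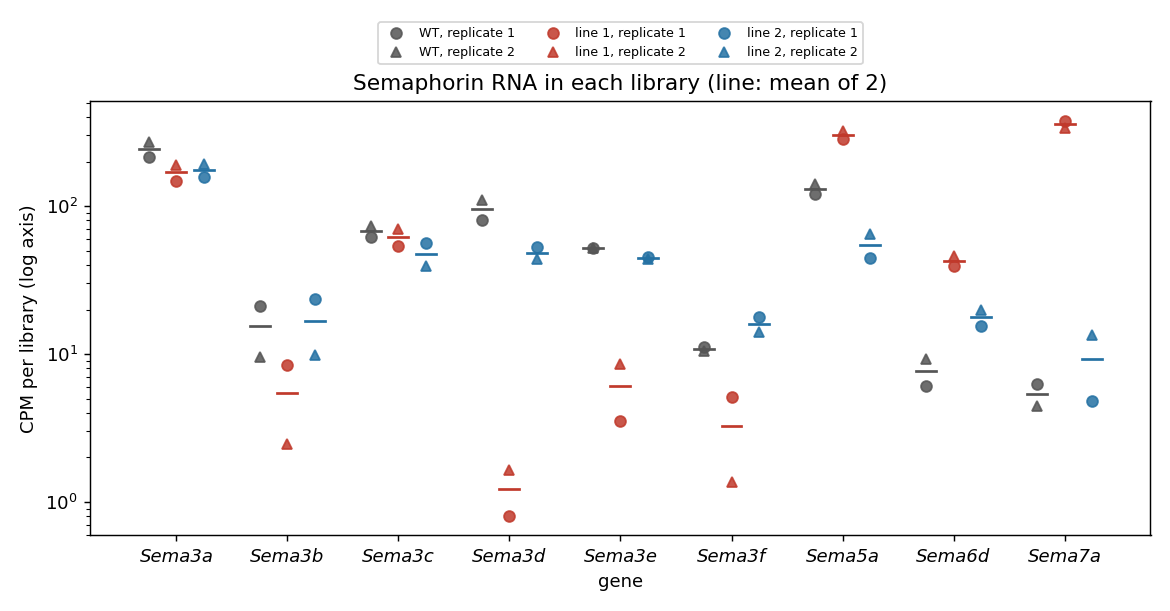
Level of each of the 9 semaphorins in the 6 RNA libraries, in CPM on a log axis, with 1 point per library and a bar at each group's mean. Sema7a stands at 376 and 338 CPM in line 1 against 13.5 or less in the other libraries, and Sema3d at 0.811 and 1.64 CPM in line 1 against 44.0 or more.

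Sema3d, a class 3 member that guides axons and the cells of developing vessels, was close to absent from line 1. It was at 80.1 and 110 CPM in WT, at 0.811 and 1.64 CPM in line 1 and at 53.1 and 44.0 CPM in line 2. The line 1 levels rested on 3 and 12 counts, and no library of one group overlapped another group's. The fitted log2 difference from WT was -6.13 (SE 0.33) in line 1 and -0.98 (SE 0.23) in line 2. Matched by replicate number, the line 1 to WT log2 ratios were -6.63 and -6.07. RefSeq places the pseudogene Gm8925 within the span of Sema3d, and it has no row of its own in the counted table.

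Sema3e, which unlike other class 3 members can bind plexin-D1 without a neuropilin and repels growing vessels, was low in line 1 and near its WT level in line 2. It was at 51.8 and 51.8 CPM in WT, at 3.51 and 8.60 CPM in line 1 and at 45.5 and 43.7 CPM in line 2. Both line 1 libraries lay far below the other 4, and they differed from each other by more than the WT libraries did. The log2 difference from WT was -3.00 (SE 0.34) in line 1 and -0.22 (SE 0.30) in line 2. Without line 1 replicate 2, the higher of the pair, the line 1 difference was -3.87.

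Sema3a, the founding axon repellent of the class, was the most abundant of the 9 in WT and was moderately lower in both lines. It was at 214 and 272 CPM in WT, at 148 and 190 CPM in line 1 and at 158 and 193 CPM in line 2. Every library of either line was below both WT libraries, while the lines overlapped each other. From the fit, the log2 difference was -0.52 (SE 0.19) in line 1 and -0.47 (SE 0.19) in line 2.

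Sema3c, which guides migrating neural crest cells in the developing heart, stayed nearest to WT in line 1. It was at 61.6 and 73.8 CPM in WT, at 54.1 and 69.7 CPM in line 1 and at 56.2 and 39.2 CPM in line 2. The WT and line 1 libraries overlapped, and both line 2 libraries were under the lower WT library. Relative to WT, the log2 difference was -0.13 (SE 0.23) in line 1 and -0.52 (SE 0.23) in line 2. In line 1 it turned to 0.03 without WT replicate 2 or without line 1 replicate 1.

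These 4 genes lie on 1 stretch of chromosome 5, all on the plus strand, with starts that run from Sema3d through Sema3a at 1.02 Mb and Sema3e at 1.64 Mb to Sema3c at 5.19 Mb. In line 1 their log2 differences along that order were -6.13, -0.52, -3.00 and -0.13, so the 2 strongly reduced genes had Sema3a, with a much smaller difference, between them. In line 2 the same order gave -0.98, -0.47, -0.22 and -0.52. None of the 4 had another tested gene starting within 500 kb. Over the stretch, taken 1 Mb past either end, 3 other genes were tested in the fit over all genes. Gnai1, an inhibitory G protein subunit, was at 26.5 and 38.2 CPM in WT and at 3.78 and 2.18 CPM in line 1, lower by a log2 difference of -3.52 (edgeR adjusted p = 0.00203). Hgf, the hepatocyte growth factor made by mesenchymal cells, was at 6.32 and 8.80 CPM in WT and at 25.7 and 32.9 CPM in line 1, higher by 1.94 (edgeR adjusted p = 0.0351). The Hgf call was lost without WT replicate 1 (edgeR adjusted p = 0.183), WT replicate 2 (0.129) or line 1 replicate 2 (0.0760). Cacna2d1, a calcium channel subunit that lies between Sema3e and Hgf, had a log2 difference of 0.06 that did not pass the test (edgeR adjusted p = 0.835). In line 2 the edgeR adjusted p of these 3 was 0.218 for Gnai1, 0.892 for Hgf and 0.708 for Cacna2d1, so none passed.

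**Figure D2:**
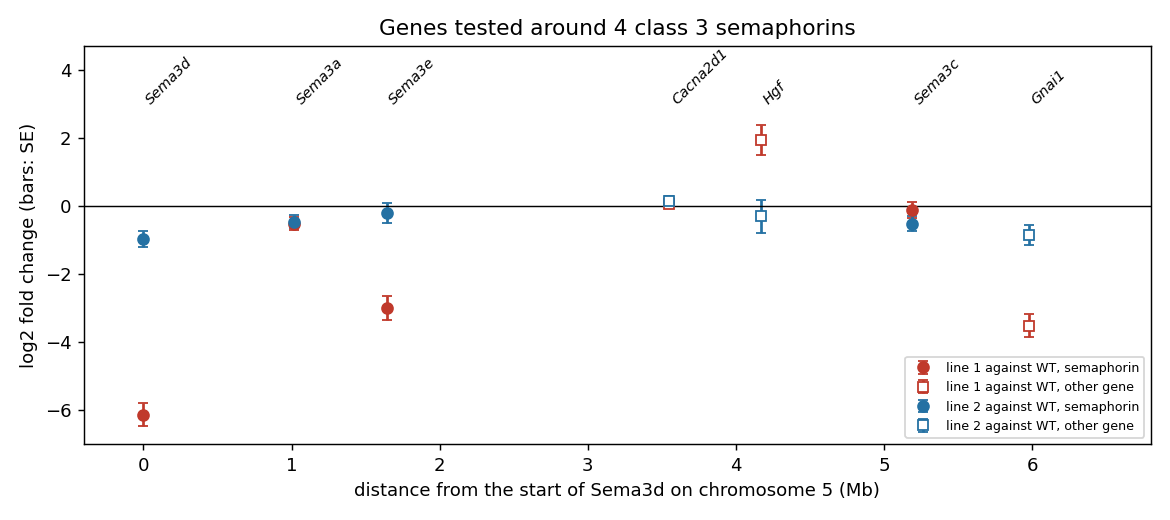
Log2 difference from WT of every tested gene on the chromosome 5 stretch, against the distance of its start from the start of Sema3d in Mb, with line 1 and line 2 drawn apart and bars of 1 SE. In line 1 Sema3d (-6.13), Sema3e (-3.00) and Gnai1 (-3.52) lie far below 0 and Hgf (1.94) above it, with Sema3a, Cacna2d1 and Sema3c between 0.06 and -0.52.

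Sema3b and Sema3f lie together on chromosome 9, on the minus strand with starts 98.5 kb apart, in a region whose human counterpart is known for genes lost in lung tumours. Sema3b was at 21.2 and 9.60 CPM in WT, at 8.38 and 2.46 CPM in line 1 and at 23.5 and 9.87 CPM in line 2. Replicate 1 was the higher library in every group, and the gap between replicates of WT was larger than that between WT and line 2 libraries of the same number. Its log2 difference was -1.60 (SE 0.73) in line 1 and 0.11 (SE 0.66) in line 2. The line 2 value turned to -0.37 without WT replicate 2 and to -0.62 without line 2 replicate 1, and the line 1 value was -2.60 without line 1 replicate 1. Matched by replicate number, the line 1 log2 ratios were -1.34 and -1.97 and the line 2 ratios 0.15 and 0.04. The RefSeq gene Lsmem2 overlaps the end of the Sema3b span, it has no row in the counted table, and the sources used here do not say whether reads were counted by strand.

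Sema3f, a ligand that prefers neuropilin-2 and repels axons and vessels, stood lower in line 1 and higher in line 2 than in WT. It was at 11.1 and 10.6 CPM in WT, at 5.14 and 1.37 CPM in line 1 and at 17.9 and 14.1 CPM in line 2. None of the groups overlapped, and the line 1 levels rested on 18.5 and 9.5 counts. That put the log2 difference from WT at -1.89 (SE 0.54) in line 1 and 0.56 (SE 0.46) in line 2. Without line 1 replicate 1 the line 1 difference was -2.97. Of the class 3 members, Sema3f was the one whose libraries lay on opposite sides of WT in the 2 lines.

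Sema5a, a transmembrane member with thrombospondin repeats that can attract or repel axons, also lay on opposite sides of WT in the 2 lines, the other way round. It was at 121 and 140 CPM in WT, at 285 and 322 CPM in line 1 and at 44.3 and 64.7 CPM in line 2. No groups overlapped, and the lowest line 1 library stood above the highest WT library as the highest line 2 library stood below the lowest WT library. As a log2 difference from WT this was 1.22 (SE 0.19) in line 1 and -1.25 (SE 0.20) in line 2. With 1 library left out, the line 1 difference ran from 1.11 to 1.35 and that of line 2 from -1.01 to -1.56. The noncoding gene Snhg18 starts 0.151 kb from Sema5a on the opposite strand. It was at 21.5 and 30.1 CPM in WT and at 24.6 and 34.8 CPM in line 1, with a log2 difference of 0.21 that did not pass the test (edgeR adjusted p = 0.717).

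Sema6d, a transmembrane ligand of plexin-A1 that takes part in heart development, was higher in both lines. It was at 6.06 and 9.28 CPM in WT, at 39.5 and 46.3 CPM in line 1 and at 15.5 and 19.9 CPM in line 2. All 3 groups were apart, with line 2 between WT and line 1. The log2 difference was 2.46 (SE 0.27) in line 1 and 1.19 (SE 0.27) in line 2. The table holds 3 transcripts of Sema6d, which share most of their counts and so cannot be told apart here.

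Sema7a, the lipid-anchored member that also carries the John Milton Hagen blood group antigen in humans, had the largest difference above WT of the 9 in line 1. It was at 6.32 and 4.48 CPM in WT, at 376 and 338 CPM in line 1 and at 4.85 and 13.5 CPM in line 2. Both line 1 libraries were far above the other 4, while 1 line 2 library lay within the WT range and the other above it. From the fit, the log2 difference was 6.08 (SE 0.42) in line 1 and 0.89 (SE 0.47) in line 2. The line 2 value came from 1 library, since it was -0.12 without line 2 replicate 2. Matched by replicate number, the log2 ratios were 5.90 and 6.24 in line 1 and -0.38 and 1.60 in line 2.

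**Figure D3:**
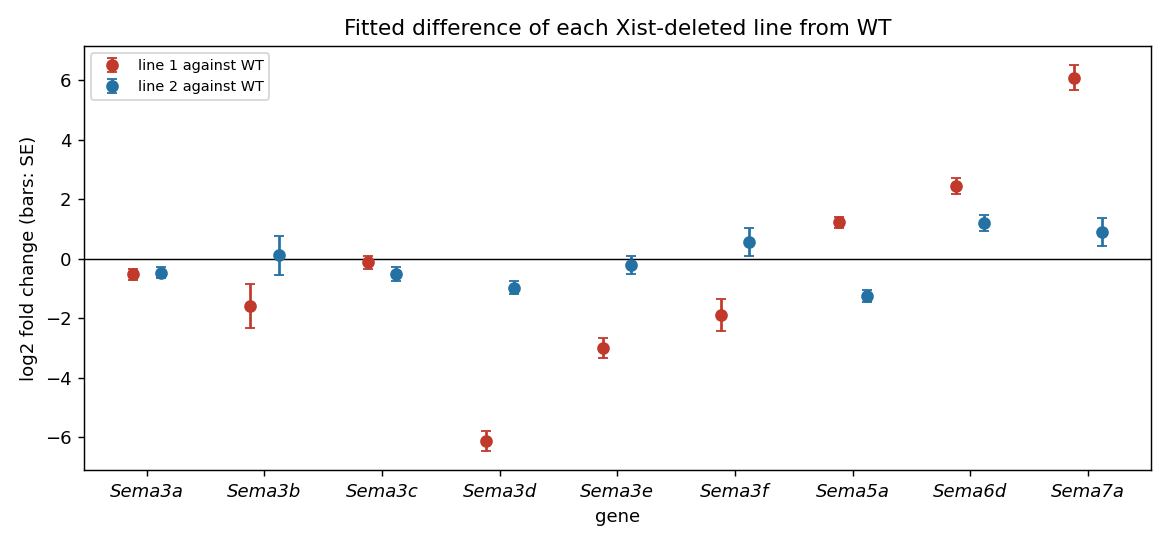
Log2 difference from WT of each semaphorin in line 1 and line 2, with bars of 1 SE from the fit over all genes. Sema7a (6.08) and Sema3d (-6.13) mark the ends of line 1, and Sema5a (1.22 and -1.25) and Sema3f (-1.89 and 0.56) have opposite signs in the 2 lines.

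Read per kilobase, the order of the semaphorins changed in line 1. In WT Sema3a led with a mean of 35.5 ± 6.00 CPM per kb (SD, n = 2), followed by Sema3d at 14.6, Sema3c at 13.7 and Sema5a at 12.1, of which Sema3d and Sema3c overlapped, as did Sema3c and Sema5a. Sema3e followed at 7.55, then Sema3b at 3.84 and Sema3f at 3.25, which overlapped, and last Sema7a at 1.65 and Sema6d at 1.18, which overlapped too. In line 1 Sema7a led at 109 ± 8.25 CPM per kb (SD, n = 2), followed by Sema5a at 28.1 and Sema3a at 24.7, which overlapped, then Sema3c at 12.5 and Sema6d at 6.59. Sema3b at 1.35, Sema3f at 0.975 and Sema3e at 0.883 overlapped from one to the next, and Sema3d was last at 0.188 ± 0.0897 CPM per kb (SD, n = 2). In line 2 Sema3a led again at 25.6 ± 3.63 CPM per kb (SD, n = 2), followed by Sema3c at 9.63, Sema3d at 7.44 and Sema3e at 6.51, with Sema3c and Sema3d overlapping. The last 5, Sema5a at 5.05, Sema3f at 4.80, Sema3b at 4.16, Sema7a at 2.81 and Sema6d at 2.72, overlapped from each to the next.

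The summed level of the 9 was 86.2 and 100 CPM per kb in the WT libraries, 184 and 184 in those of line 1 and 68.4 and 69.1 in those of line 2. In WT, 83.7% and 84.3% of that sum was class 3, against 20.0% and 24.0% of the line 1 libraries' sums and 88.4% and 80.9% in line 2. Sema7a alone made up 2.24% and 1.36% of the sum for WT, 62.4% and 56.0% for line 1 and 2.16% and 5.98% for line 2. Over all 20 semaphorins in the table, Sema7a was 1.41% and 0.926% of the sum for WT, 46.5% and 43.2% for line 1 and 1.24% and 3.57% for line 2. A share falls when another member rises, so the class 3 share in line 1 holds the level of Sema7a as well as that of the class.

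**Figure D4:**
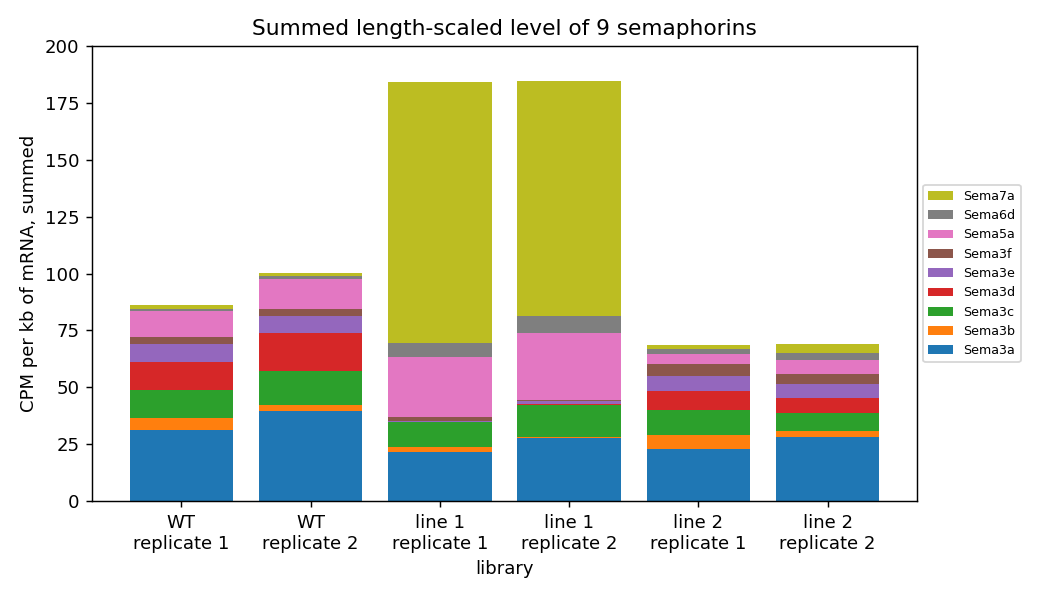
Summed level of the 9 semaphorins in each library, in CPM per kb, stacked by member. The bars reach 184 in both line 1 libraries, where Sema7a fills 62.4% and 56.0%, and from 68.4 to 100 in the other 4, where Sema3a is the widest band.

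Across the 6 libraries, Sema3d, Sema7a and Sema3e had the widest range of log2 CPM, at 6.54, 6.28 and 3.75. For each, the 3 genes with the most similar profile were taken by Pearson's r among 10291 genes, as a description, since 6 libraries in 3 groups leave few independent points. For Sema3d they were Glrb, a glycine receptor subunit, Cpq, a secreted carboxypeptidase, and Igf1, a growth factor, with r of 0.999, 0.997 and 0.996. Igf1 was at 70.7 and 69.9 CPM in WT, at 11.6 and 13.4 in line 1 and at 58.9 and 58.1 in line 2. For Sema7a they were Etohd2, Endod1 and Rbm43, with r of 0.999, 0.998 and 0.997. For Sema3e they were Tagln, the smooth muscle protein transgelin, Slc27a4, a fatty acid transporter, and Gpam, an enzyme of triglyceride synthesis, each with r of 0.998. Slc27a4 had a log2 difference of only -0.25 in line 1 where Sema3e had -3.00, so r matches the shape of a profile and not its size.

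The receptors and partners through which semaphorins act were tested, with p-values from edgeR's quasi-likelihood test adjusted over all genes. They were not used to choose the members, but their lists were written with earlier results of these data known. The shares of listed genes called are therefore a description. Of 66 listed genes 56 were tested. In line 1, 4 rose and 9 fell, 23.2% of those tested beside 14.3% of all genes, of which 6.75% rose and 7.55% fell, and their median log2 difference was -0.19 beside 0.01. In line 2, 1 rose and 4 fell, 8.93% beside 3.58% of all genes, of which 1.73% rose and 1.85% fell, with a median of -0.11 beside 0.01. Tested against each other, 9 were higher in line 2 than in line 1 and 3 lower, 21.4% beside 12.6% of all genes, with 6.87% higher and 5.76% lower. With the replicate block 28 of the 56 were called in line 1, where 32.4% of all genes were, and 12 of the 56 in line 2, where 12.1% were. With either WT library left out, fewer were called in line 1, as was so over all genes. For line 2 the count over all genes also fell when any WT or line 2 library was left out. The line 2 calls were thin, since edgeR called 0 when either WT library or either line 2 library was left out. There, 10 genes without a WT library and 9 without a line 2 library had an unadjusted p under 0.05, and DESeq2 called 3 on all 6 libraries.

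Among the neuropilins, the co-receptors of class 3 ligands, Nrp2 rose in both lines. It was at 43.7 and 53.6 CPM in WT, at 221 and 197 CPM in line 1 and at 152 and 129 CPM in line 2, and no groups overlapped. Relative to WT, the log2 difference was 2.09 in line 1 (edgeR adjusted p = 0.000974) and 1.52 in line 2 (edgeR adjusted p = 0.0105), and the line 2 p ran from 0.0532 to 0.0824 when any WT or line 2 library was left out. Nrp1 was at 357 and 394 CPM in WT, at 299 and 326 CPM in line 1 and at 321 and 359 CPM in line 2, and did not pass in line 1 (-0.27, edgeR adjusted p = 0.249) or line 2 (-0.14, edgeR adjusted p = 0.753). With the replicate block Nrp1 passed in line 1 (edgeR adjusted p = 0.0286).

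Of 9 plexins 8 were tested, and Plxnb1, the receptor of Sema4d, fell in line 1. It was at 98.5 and 84.6 CPM in WT, at 23.8 and 31.4 CPM in line 1 and at 89.4 and 76.0 CPM in line 2, with a log2 difference of -1.71 in line 1 (edgeR adjusted p = 0.00292). Line 2 stood 1.57 above line 1 in the test of the lines against each other (edgeR adjusted p = 0.0044). Plxnc1, the plexin that binds Sema7a, was low throughout, at 3.28 and 1.60 CPM in WT and 1.62 and 1.36 CPM in line 1, and did not pass (-0.66, edgeR adjusted p = 0.475). Plxnd1, the receptor of Sema3e, was at 88.7 and 69.4 CPM in WT, at 140 and 60.7 CPM in line 1 and at 155 and 159 CPM in line 2, and did not pass in line 1 (0.33, edgeR adjusted p = 0.654) or line 2 (1.00, edgeR adjusted p = 0.281).

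Among 8 other receptors tested, Itga1 and Kdr fell in line 1. Itga1, the integrin alpha1 chain that pairs with the beta1 chain, was at 46.2 and 53.9 CPM in WT, at 11.1 and 8.46 CPM in line 1 and at 57.9 and 69.2 CPM in line 2. Its log2 difference in line 1 was -2.38 (edgeR adjusted p = 0.00158), and line 2 stood 2.73 above line 1 (edgeR adjusted p = 0.00102). Itgb1, the beta1 chain, had a log2 difference of -0.33 in line 1 and did not pass (edgeR adjusted p = 0.134), though it did with the replicate block (edgeR adjusted p = 0.0141). Kdr, the VEGF receptor that teams with neuropilins, was at 5.81 and 7.20 CPM in WT and had 0 counts in both line 1 libraries, so that it was at least 24.1-fold lower there when line 1 is set to 3 counts over both libraries together. In line 2 it was at 1.21 and 0.564 CPM, a log2 difference of -2.96 (edgeR adjusted p = 0.0392), with p between 0.163 and 0.355 when any WT or line 2 library was left out and 0.0589 in DESeq2.

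**Figure D5:**
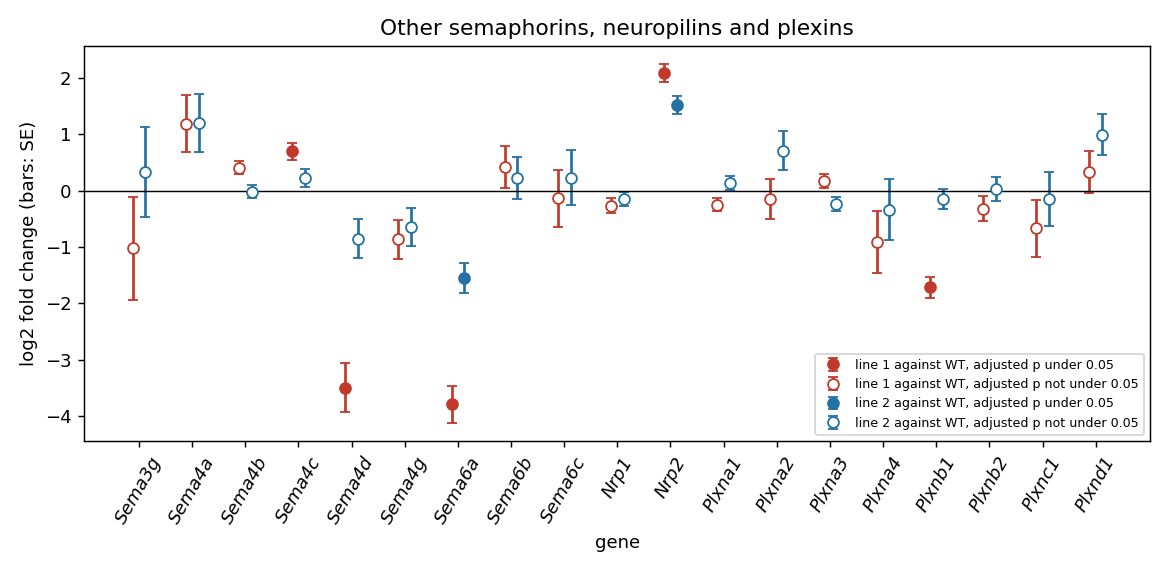
Log2 difference from WT, with bars of 1 SE, of every tested gene among the other semaphorins, neuropilins and plexins. Line 1 and line 2 are drawn apart, with points filled where the edgeR adjusted p was under 0.05. Nrp2 lies at 2.09 and 1.52, while Plxnb1 (-1.71 and -0.15) lies far below 0 in line 1 and near it in line 2.

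Of the 11 other semaphorins 9 were tested, and in line 1 Sema4c rose and Sema4d and Sema6a fell. Sema4d, a transmembrane ligand of plexin-B1, was at 15.4 and 10.6 CPM in WT, at 1.62 and 0.819 CPM in line 1 and at 8.24 and 6.20 CPM in line 2. Its log2 difference was -3.49 in line 1 (edgeR adjusted p = 0.00447), so this ligand and its receptor Plxnb1 were both lower there. Sema6a, a transmembrane ligand of class A plexins, was at 11.1 and 9.76 CPM in WT, at 0.811 and 0.682 CPM in line 1 and at 3.39 and 3.67 CPM in line 2. Its log2 difference was -3.79 in line 1 (edgeR adjusted p = 0.00145) and -1.55 in line 2 (edgeR adjusted p = 0.0364), where p ran from 0.207 to 0.325 when any WT or line 2 library was left out and was 0.157 in DESeq2. Sema6a thus fell in both lines where its relative Sema6d was higher in both. Sema4c, a ligand of plexin-B2, rose by 0.70 in line 1 (edgeR adjusted p = 0.0328), and its call was lost when replicate 1 or 2 of WT was left out (edgeR adjusted p = 0.213 and 0.125), replicate 1 of line 1 (0.0523), or replicate 1 or 2 of line 2 (0.0829 and 0.0719).

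Inside the cell, 20 effectors were tested. In line 1 Rnd1, a small GTPase that binds plexins, fell by 2.04 on the log2 scale (edgeR adjusted p = 0.00751). Limk1, the kinase that acts on cofilin, rose by 0.58 there (edgeR adjusted p = 0.0152), with p between 0.0543 and 0.145 when any WT or line 2 library was left out. In line 2 Dpysl3, of the collapsin response mediator proteins, fell by 1.15 (edgeR adjusted p = 0.0336), with p between 0.170 and 0.266 when any WT or line 2 library was left out.

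Among the proteases that cut class 3 semaphorins or their relatives, Furin did not pass in line 1 (-0.07, edgeR adjusted p = 0.833), and Pcsk6, a convertase of the same family, fell in both lines. Pcsk6 was at 13.6 and 11.0 CPM in WT, at 0.811 and 0.819 CPM in line 1 and at 1.70 and 1.83 CPM in line 2. That put the log2 difference from WT at -3.87 in line 1 (edgeR adjusted p = 0.00139) and -2.77 in line 2 (edgeR adjusted p = 0.011), where p ran from 0.0708 to 0.135 when any WT or line 2 library was left out.

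All 5 VEGF ligands, which compete with class 3 semaphorins for neuropilins, were tested, and 1 rose and 2 fell in line 1. Pgf, the placental growth factor, was at 2.27 and 1.76 CPM in WT and at 21.1 and 9.55 CPM in line 1, higher by 2.90 (edgeR adjusted p = 0.0137). Vegfd fell by 0.96 (edgeR adjusted p = 0.0127) and Vegfc by 0.86 (edgeR adjusted p = 0.0442). Without WT replicate 1 or 2 the adjusted p was 0.0686 and 0.0972 for Pgf, 0.0808 and 0.102 for Vegfd, and 0.183 and 0.210 for Vegfc. Vegfc also lost its call when replicate 2 of line 1 was left out (edgeR adjusted p = 0.0971), and replicate 1 or 2 of line 2 (0.0977 and 0.101), and in DESeq2 (adjusted p = 0.0524).

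The genes next to the members were tested as well. Of 47 genes that start within 500 kb of a member, 6 rose and 2 fell in line 1, 17% beside 14.3% of all genes, and 1 fell in line 2, 2.13% beside 3.58%. Their median log2 difference was 0.01 in line 1 and -0.02 in line 2. The line 1 count was 14 of 47 with the replicate block, where 32.4% of all genes were called. It fell when either WT library or either line 2 library was left out, as did the count over all genes. All but 2 of the 47 neighbours lie by the chromosome 9 members, 18 by Sema7a. Near Sema7a, which was so much higher in line 1, Scamp5 fell by 2.68 on the log2 scale (edgeR adjusted p = 0.00174) and Islr2 by 1.72 (edgeR adjusted p = 0.0322), while Stra6, a retinol transporter, rose. Stra6 had 0 and 1.5 counts in WT and was at 12.7 and 53.6 CPM in line 1, a log2 ratio of 8.09 with a counting interval of 5.98 to 11.89. Near Sema3b and Sema3f, both lower in line 1, the named genes Hemk1 (log2 difference 1.03), Uba7 (2.86), Fam212a (1.15), Bsn (3.28) and 4930447F24Rik (2.48) all rose there. Their edgeR adjusted p was 0.0185, 0.0389, 0.00788, 0.00983 and 0.0068 in that order, and each of the 5 lost its call without WT replicate 2. The span of 4930447F24Rik lies within that of Bsn on the opposite strand. Whether reads were counted by strand is not stated, so the rises of Bsn and 4930447F24Rik may not be separate. Uba7 was at 171 and 42.6 CPM in the line 1 libraries. Without WT replicate 1 or 2, Stra6 had an edgeR adjusted p of 0.0515 and 0.0558. In line 2 Islr2 was the gene that fell (-2.38, edgeR adjusted p = 0.0385), at 0.727 and 0.564 CPM, but DESeq2 called it in neither line, and its edgeR p in line 2 was from 0.152 to 0.410 when any WT or line 2 library was left out. In line 1 it lost its call whichever of the 6 libraries was left out, with p from 0.0542 to 0.284.

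Some markers of other skin cells moved with line 1, in which the larger member differences were seen. The summed level of 9 keratinocyte markers was from 78.6 to 101 CPM in WT, from 10.1 to 11.4 in line 1 and from 33.2 to 34.5 in line 2. That of 10 neuron markers was from 183 to 209, from 61.1 to 115 and from 212 to 239 CPM, and that of 10 melanocyte and Schwann cell markers from 52.6 to 66.7, from 21.2 to 21.9 and from 32.7 to 36.1 CPM. The sum of 9 leukocyte markers was from 18.4 to 18.9, from 28.7 to 29.7 and from 26.7 to 29.9 CPM, and that of 9 endothelial markers from 12.2 to 18.7, from 15.4 to 15.9 and from 14.8 to 17.9 CPM. Dcn, the matrix proteoglycan decorin of the fibroblast list, was at 61.9 and 26.9 CPM in WT, at 243 and 156 CPM in line 1 and at 28.6 and 19.7 CPM in line 2. It rose in line 1 by 2.19 on the log2 scale (edgeR adjusted p = 0.0215, and 0.0586 without WT replicate 2), and line 2 minus line 1 was -3.06 (edgeR adjusted p = 0.0083, and 0.0663 without line 2 replicate 2). Krt1 of the keratinocyte list and Dct of the melanocyte list were at 0 counts in all 6 libraries. The part of these markers in the member differences was not tested.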

How the data were processed

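Expected counts per transcript were deposited for 6 RNA libraries in 1 table, which the authors made with HOMER's analyzeRNA.pl over exons of mm10 without normalization, per the file headers. Values came in steps of 0.5. Tools listed in the submitters' processing notes are bedtools 2.25.0, HOMER, SAMtools, TopHat2 and Trim Galore 0.4.1, and the sources used here do not state whether counting used strand. Of 28972 transcripts, the one with the highest total was kept for each of 24470 symbols. Values that ended in 0.5 were rounded up to whole counts, since a count test was planned and the values were not whole.

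Genes were filtered with filterByExpr (12910 kept), scaled by TMM and fitted in edgeR 4.0.16 (R 4.3.3) by the quasi-likelihood test with 1 mean per group and 3 residual degrees of freedom, with Benjamini-Hochberg adjustment over all genes and a threshold of 0.05. Spread between replicates, as edgeR's common coefficient of variation, was 0.17, and the read totals in the file headers ran from 10506118 to 20090464 per library. Alternatives were DESeq2 1.42.0, RLE scaling, no filter, summed transcripts, the compared groups alone, each library left out, and a replicate block. Replicate numbers, from the labels, were used to pair samples in the replicate block and in the ratios matched by replicate number. The main fit did not pair them, although replicate differences correlated between groups at 0.54, 0.594 and 0.529 over genes. The replicate number also marks depth. Intervals and floors cover counting error only.

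The members and gene lists were chosen with earlier results of these data known. Named genes were the members, up to 4 per pathway list and comparison by adjusted p, up to 3 neighbours within 500 kb per member, 3 genes for each of the 3 members of widest range by likeness (mean log2 CPM of at least 3), and Xist. Genes that bind particular members (Plxnc1, Plxnd1, Itgb1, Furin, Nrp1) and the genes of the chromosome 5 stretch were added for their role or place. Chromatin accessibility, ChIP-seq and knockdown samples were not used here, so chromatin at the members was not examined. Files on X-linked alleles were not used either, as no member is X-linked.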

Additional observations from a re-analysis of the deposited data

Results flagged for a closer look

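Several pathway and guidance genes had a different change from WT in the 2 lines, by the test of line 2 against line 1 in the edgeR fit over all genes with adjusted p under 0.05. Values are log2 differences of line 2 minus line 1. The test passed for 24 listed genes that are not members. They were 12 of 56 tested pathway genes (21.4%) and 12 of 28 tested genes of the other guidance families (42.9%), beside 12.6% of all genes. The lists were written with earlier results of these data known, so these shares are a description. Among semaphorin pathway genes, line 2 was above line 1 for Sema4d (2.64), Sema6a (2.25), Plxnb1 (1.57), Itga1 (2.73), Rnd1 (1.91), Fes (2.06), Adamts1 (1.38), Cntn2 (1.76) and Vegfd (0.66), and below it for Dpysl3 (-1.10), Farp1 (-0.54) and L1cam (-2.47). Among netrins, slits, ephrins and their receptors, line 2 was above line 1 for Dscam (3.85), Efnb1 (1.54), Epha1 (1.34), Epha3 (2.58), Epha4 (4.56), Neo1 (0.77), Ntn4 (2.66), Robo1 (3.67) and Unc5c (2.74), and below it for Ephb2 (-1.17), Ntn1 (-1.24) and Unc5a (-5.33). For Dscam line 1 held 0.5 and 1 counts, and the log2 ratio was 4.50 with a counting interval of 2.30 to 8.34. For Unc5a line 2 held 0.5 and 0 counts, and the log2 ratio was -6.63 with a counting interval of -16.64 to -3.34.

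Of these 24, the 8 genes Efnb1, Epha3, Epha4, Itga1, Ntn4, Plxnb1, Robo1 and Unc5c passed whichever library was left out, and the other 16 did not pass without at least 1 library. Cntn2 and Vegfd did not pass when any 1 of the 6 libraries was left out, and their DESeq2 adjusted p was 0.338 and 0.112. Fes (DESeq2 adjusted p = 0.0586) and L1cam (0.0753) also did not pass in DESeq2. Adamts1, Farp1 and Fes did not pass without either WT library or either line 2 library.

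Of the semaphorins described, 2 had every library of one line above both WT libraries and every library of the other line below them. They were Sema3f, with a difference of 2.45, and Sema5a, with -2.47. No test of this difference is reported, since the members were chosen on these values.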

How the results depend on the processing

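The balance of rises and falls among the genes called turned in some settings. In line 1, 871 of all genes rose and 975 fell, against 2103 and 2079 with the replicate block. For line 2 these were 223 and 239, against 484 and 464 without the filter. Between the lines, 887 were higher in line 2 and 743 lower, against 1726 and 1780 with the block. Over all genes, 1846 were called in line 1, 462 in line 2 and 1630 between the lines. With the replicate block these became 4182, 1568 and 3506, and leaving out 1 library gave 718 to 2361, 23 to 783 and 600 to 1991. Line 2 also gave 948 without the filter and 790 with the compared groups alone. Pathway genes called in line 1 numbered 13, 28 with the block and 8 to 17 with a library left out. In line 2 they numbered 5, then 3 in DESeq2, 10 without the filter, 12 with the block, 8 with the compared groups alone and 0 to 8 with a library left out. Other guidance genes called in line 1 numbered 10, 16 without the filter, 21 with the block and 5 to 11 with a library left out, and in line 2 numbered 4, 7, 13 and 1 to 6. Neighbours called in line 1 numbered 8, 14 with the block, 5 with the compared groups alone, 1 within 250 kb and 1 to 9 with a library left out. In line 2 the 1 neighbour called fell, whereas DESeq2 called 1 neighbour that rose. The count became 2 without the filter, with the block, with summed transcripts and with the compared groups alone. It became 0 of 21 within 250 kb, where edgeR gave an unadjusted p under 0.05 to 0, and 0 to 2 with a library left out. With 2 libraries per group, Sema3b (SE 0.73) and Sema3f (SE 0.54) were the least resolved members for line 1 against WT in the main fit. That fit did not pair replicates, and replicate 1 of Sema3b was the higher library in every group.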

Other observations

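Other families that guide axons and cells were tested in the same fit, from lists also written with earlier results of these data known. Of 42 listed netrins, slits, ephrins and their receptors 28 were tested, of which 4 rose and 6 fell in line 1, 35.7% beside 14.3% of all genes, with a median log2 difference of -0.20. In line 2, 3 rose and 1 fell, 14.3% beside 3.58% of all genes, with a median of 0.24. The line 2 count was 1 when any WT or line 2 library was left out and 13 with the replicate block, and the line 1 count was 5 without WT replicate 2 and 21 with the block. Ntn1, which encodes netrin-1, rose in both lines. It was at 19.2 and 16.3 CPM in WT, at 99.5 and 126 CPM in line 1 and at 46.8 and 48.4 CPM in line 2, with log2 differences of 2.67 (edgeR adjusted p = 0.000716) and 1.43 (edgeR adjusted p = 0.0157). The line 2 call of Ntn1 was lost, with p from 0.0916 to 0.142, when any WT or line 2 library was left out.

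The Eph receptors Epha4 and Epha3 differed between the lines. Epha4 was at 24.0 and 32.2 CPM in WT, at 1.62 and 1.91 CPM in line 1 and at 34.9 and 50.5 CPM in line 2, and fell in line 1 by 3.95 on the log2 scale (edgeR adjusted p = 0.00139). Epha3 was at 20.5 and 16.3 CPM in WT, at 33.8 and 25.9 CPM in line 1 and at 204 and 150 CPM in line 2, and rose in line 2 by 3.28 (edgeR adjusted p = 0.00424). Robo1, a receptor of slit proteins, fell in line 1 by 2.37 (edgeR adjusted p = 0.0094).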
